A study of Mus musculus with 4 samples.

Results

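The canonical and linker histone genes of the mouse were examined for KAP1 binding in regulatory T cells. The set holds every protein-coding gene on chromosomes 1 to 19 whose symbol begins with H1f, H2ac, H2bc, H3c or H4c followed by a number, which gave 67 of 20665 protein-coding genes in the RefSeq table for GRCm38. They comprise 10 linker histone genes (H1), 17 H2A genes, 16 H2B genes, 12 H3 genes and 12 H4 genes. The rule uses the symbol alone and no measured value, but it was chosen with earlier results of these data known. The pseudogene H2ac14 and the coding gene H4bc24, both of which lie at the same places, are not counted.

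H2A, H2B, H3 and H4 are the core histones around which DNA is wound, and H1 binds the linker DNA between nucleosomes. Most core histone genes are short genes in dense clusters that are transcribed during DNA replication under the control of the coactivator NPAT, and their messages end in a stem-loop bound by SLBP instead of a poly(A) tail. KAP1, the product of Trim28, is a corepressor that zinc finger proteins with a KRAB domain bring to chromatin, where it recruits the SETDB1 methyltransferase of histone H3 and heterochromatin protein HP1.

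The chromatin came from splenic regulatory T cells of C57BL/6 mice, sorted and then cultured for 2 weeks. The series has 2 KAP1 immunoprecipitates and 2 inputs made with no antibody, all 4 from the same kind of cell with no other genotype or treatment named. Whether the replicates are separate cultures or animals is not stated, so differences between them may be technical, and the inputs were not analysed here. A summit list measures no RNA, so markers of the cell type could not be examined.

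Each KAP1 sample has its own list of summits, the points of highest enrichment within called peaks, with the score that the peak caller wrote, on a −log10 scale of either p or q. Replicate 1 holds 8862 summits with a median score of 7.25, and replicate 2 holds 79515 with a median of 8.39. The read depth behind each list is unknown, and scores were compared only within a list, as the percentile of a summit among all summits of its list (ties averaged). Where the lists had summits no more than 200 bp apart, the replicate 1 summit is called shared. On chromosomes 1 to 19, 87.0% of replicate 1 summits were shared.

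Histone genes carried shared KAP1 summits at their ends about as often as other coding genes, and within 20 kb more often when all scores were kept. Of the 67 genes, 6 had a shared summit within 1 kb of their lowest or highest coordinate (8.96%), against 8.94% of all coding genes. These 6 genes rest on 5 distinct summits, because H1f4 and H2bc6 share one. Within 20 kb, 37 of 67 genes had a shared summit (55.2%), against 34.3% of coding genes. Neighbouring histone genes see the same summits, and the 37 genes rest on 14 distinct ones, so the genes are not separate observations. With only scores at or above the median of each list, the order at 20 kb was the opposite, with 10 histone genes (14.9%) against 23.0% of coding genes.

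Both replicates' own lists gave the same order of shares at 20 kb. At gene ends the histone share was close to the background in replicate 1 and below it in replicate 2. Replicate 1 had a summit at an end of 7 histone genes (10.4%, background 9.84%) and within 20 kb of 45 (67.2%, background 35.9%). Replicate 2 had one at an end of 10 histone genes (14.9%, background 23.2%) and within 20 kb of 64 (95.5%, background 84.3%). Histone genes are short, with a median length of 496 bp against 17491 bp for coding genes, and a window around a short gene covers less DNA. Among coding genes under 2000 bp, 2.05% had a shared summit at an end and 11.7% within 20 kb. Of the 60 histone genes of that length, 3 had one at an end and 31 (51.7%) within 20 kb. The short coding genes were picked by length alone, and whether they differ from histone genes in other ways was not tested. No test was made of these shares, since 2 samples of 1 group allow none and clustered genes are not replicates.

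**Figure D1:**
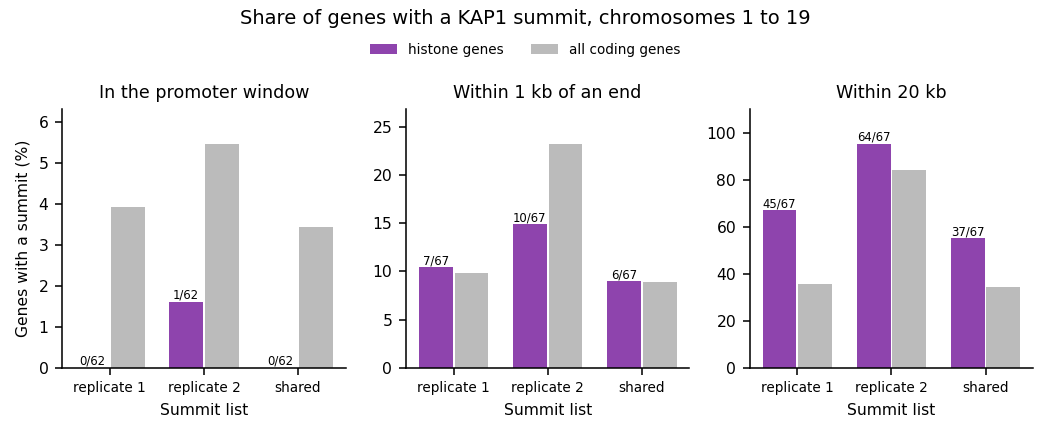
Percentage of genes with a KAP1 summit in the promoter window, within 1 kb of an end and within 20 kb, for replicate 1, replicate 2 and shared summits. Purple bars are the histone genes, with their counts above, and grey bars all coding genes of chromosomes 1 to 19 (in the first panel, those in the promoter table); the histone share is above the grey bar in all 3 lists only within 20 kb, and each panel has its own scale from 0.

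The strongest summit at a histone gene belonged to H1f8, which encodes the linker histone of oocytes. Its score was 27.6 in replicate 1 (percentile 94.0) and 86.3 in replicate 2 (percentile 99.9). The replicate 1 summit lay inside the gene at chr6:115945796, 865 bp after the start of transcription, and the replicate 2 summit lay 42 bp further on. Neither list had another summit within 20 kb of H1f8.

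The shared summits at the other 5 genes were weak in replicate 1. The H1f5 summit scored 5.10 in replicate 1 and 6.37 in replicate 2 and lay at chr13:21781298, 673 bp before the start of this linker histone gene. The H4c11 summit scored 4.61 and 7.40 and lay 749 bp before the start of this H4 gene, at chr13:21734285. In replicate 1 the 4 distinct end summits other than that of H1f8 ranged from percentile 19.6 to 28.6, and in replicate 2 from 15.6 to 54.2, so none of them reached the median of the replicate 1 list.

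H1f4, another linker histone gene, and H2bc6, an H2B gene, are neighbours on the same strand, and 1 summit at chr13:23621675 was within reach of both. It fell on the same base in both replicates, with scores of 5.10 and 6.07. For H1f4 it lay 102 bp beyond the far end of the gene, 883 bp after its start. H2bc6 has 2 listed starts, and the summit lay 581 bp before the outer one and 35705 bp from the inner one, so it is at the end of an extended transcript of H2bc6. H2bc4, also an H2B gene with an extended span (8282 bp), had a summit inside its higher end by 344 bp, with scores of 5.10 and 9.12.

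At 5 histone genes only 1 replicate had a summit at an end. In replicate 1 this was H3c1, an H3 gene, with a score of 4.17 at 36 bp outside its higher end, and the nearest replicate 2 summit was 15987 bp from it. In replicate 2 these were H1f10, H1f3, H1f7 and H2ac8. H1f10, the replication-independent linker histone H1X, had a score of 15.5 (percentile 90.3) at 921 bp outside its lower end, and the locus had 3 further replicate 2 summits and none of replicate 1. H2ac8, an H2A gene, had a score of 10.6 at 607 bp outside its lower end. H1f3 and H1f7, the latter a linker histone gene of spermatids, had scores of 6.09 and 6.26, at percentiles 15.8 and 16.7.

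**Figure D2:**
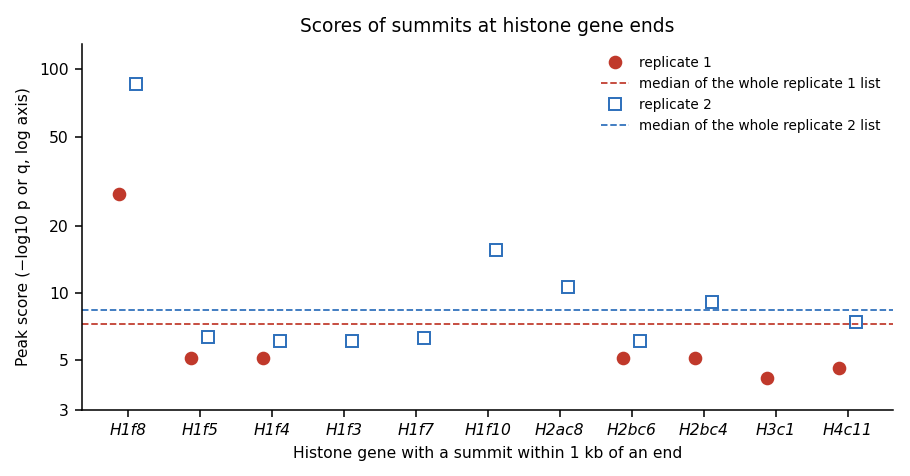
Peak scores (log axis) of every summit within 1 kb of a histone gene end, for the 11 genes that have one; red circles are replicate 1, open blue squares replicate 2, and dashed lines the medians of the whole lists. Apart from H1f8, all replicate 1 points lie below the replicate 1 median of 7.25; H1f4 and H2bc6 show the same summit.

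By family, end summits fell on linker histone genes and a few core histone genes. Of the 10 H1 genes, 3 had a shared end summit, 3 had one in replicate 1 and 6 in replicate 2. Of the 57 core histone genes, 3 had a shared end summit (2 H2B genes and 1 H4 gene, no H2A or H3 gene). Replicate 1 had one at 4 core genes, those 3 and H3c1, and replicate 2 also at 4. The shares of all coding genes were 8.94% for shared, 9.84% for replicate 1 and 23.2% for replicate 2 summits. The median distance to the nearest replicate 2 summit was 794 bp for H1 genes, 7146 bp for H2A, 4592 bp for H2B, 6052 bp for H3 and 5316 bp for H4. For shared summits the families' order was different, with medians of 19488 bp for H1, 14258 bp for H2A, 15034 bp for H2B, 25632 bp for H3 and 26390 bp for H4. For all coding genes, which are longer, the median distance was 0 bp (inside the gene) for replicate 2 summits and 56535 bp for shared summits. The difference between families was not tested.

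**Figure D3:**
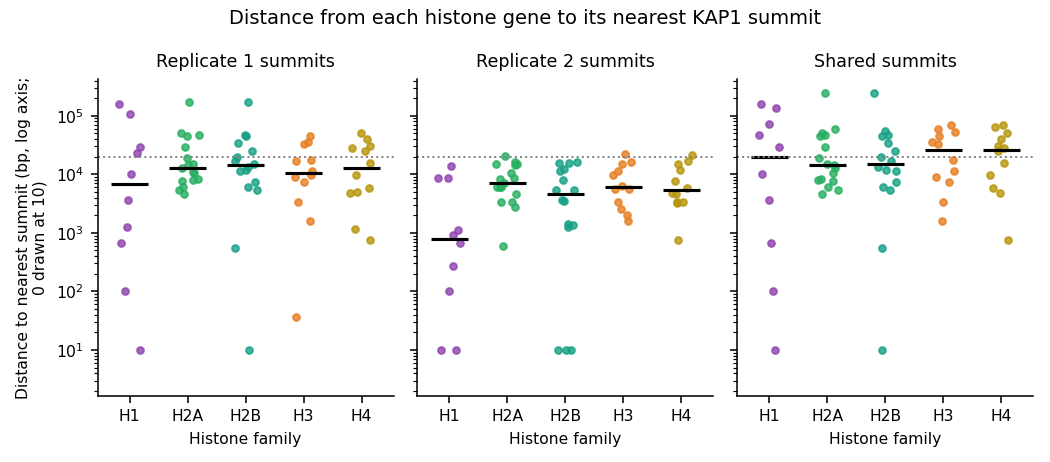
Distance from each of the 67 histone genes to its nearest KAP1 summit (log axis in bp, 0 drawn at 10), by family, for replicate 1, replicate 2 and shared summits; black bars are medians and the dotted line marks 20 kb. For shared summits the H1 genes spread from 0 to 160213 bp and the H2B genes from 0 to 241589 bp.

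No shared summit lay in the core promoter of a histone gene that the promoter table holds. The promoter table, from RefSeq on GRCm38.p6, gives the 250 bases before and 50 after a start and holds 62 of the 67 genes. The others are H2bc4, H2bc21, H3c1, H3c7 and H4c14. No histone gene had a shared or a replicate 1 summit in this window, against 3.43% and 3.93% of the coding genes in the table. In replicate 2 there was 1, at H1f3, where the summit lay 26 bp after the start (1.61%, background 5.47%).

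The 150 bases before the start are shown for H1f3, whose window held that summit, and for the 5 genes with a shared end summit that are in the table. Capitals mark 5 short motifs searched on both strands, which do not overlap each other here. They are TATAAA for the TATA box, CCAAT, which names its own box, AAACACA for the H1 box of linker histone promoters, GGTCC for the core of the H4 promoter element bound by HINFP, and ATTTGCAT for the octamer of H2B promoters. Each sequence reads 5′ to 3′ on the gene's strand and ends at the base before the start.
H1f3: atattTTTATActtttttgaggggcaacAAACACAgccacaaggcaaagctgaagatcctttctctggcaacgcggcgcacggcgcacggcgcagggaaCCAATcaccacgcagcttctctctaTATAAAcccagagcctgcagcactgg
H1f4: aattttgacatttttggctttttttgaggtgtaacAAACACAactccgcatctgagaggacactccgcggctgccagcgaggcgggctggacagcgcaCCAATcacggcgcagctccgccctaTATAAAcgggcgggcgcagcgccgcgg
H1f5: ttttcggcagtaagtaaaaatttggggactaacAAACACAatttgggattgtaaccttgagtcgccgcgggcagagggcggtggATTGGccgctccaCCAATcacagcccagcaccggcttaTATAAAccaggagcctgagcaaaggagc
H1f8: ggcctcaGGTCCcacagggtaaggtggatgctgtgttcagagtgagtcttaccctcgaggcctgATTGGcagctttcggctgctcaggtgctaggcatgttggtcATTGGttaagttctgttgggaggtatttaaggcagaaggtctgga
H2bc6: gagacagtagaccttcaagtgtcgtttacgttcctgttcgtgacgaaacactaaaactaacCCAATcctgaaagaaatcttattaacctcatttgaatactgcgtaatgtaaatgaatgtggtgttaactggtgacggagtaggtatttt
H4c11: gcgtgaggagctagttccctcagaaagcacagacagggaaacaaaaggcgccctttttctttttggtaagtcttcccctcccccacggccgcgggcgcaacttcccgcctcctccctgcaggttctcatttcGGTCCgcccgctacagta
They lie at chr13:23554882-23555031 (plus strand, H1f3), chr13:23622559-23622708 (minus, H1f4), chr13:21780626-21780775 (minus, H1f5), chr6:115944781-115944930 (plus, H1f8), chr13:23621095-23621244 (minus, the outer start of H2bc6) and chr13:21734884-21735033 (plus, H4c11).

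The 3 replication-dependent linker genes share 1 layout that the other 3 lack. In H1f3, H1f4 and H1f5 an H1 box begins 122, 115 and 117 bases before the start, a CCAAT box 51, 52 and 53 bases before, and a TATA box 26, 27 and 28 bases before. H1f8 has 2 CCAAT boxes on the other strand and no TATAAA or AAACACA in these bases, and H2bc6's outer start has 1 CCAAT. Both groups include genes with a shared end summit. A motif match describes letters and is not a binding site.

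Over the full promoter windows, histone genes held most of these motifs more often than the 32851 promoters of the table. TATAAA was in 34 of 62 histone promoters (54.8%, all promoters 13.6%), and CCAAT in 51 (82.3%, all promoters 37.4%). ATTTGCAT was in 12 (19.4%, all promoters 1.74%), of which 6 were H2A and 6 H2B genes. AAACACA was in 9 (14.5%, all promoters 7.18%), 5 of them H1f2, H1f3, H1f4, H1f5 and H1f6. GGTCC was in 27 (43.5%, all promoters 45.5%), including 10 of the 11 H4 promoters. Their median GC content was 45.7%, against 52.7% for all promoters.

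Copies of histone genes can be too alike for reads to be placed, and how the authors' alignment treated such reads is not given in the sources used here. Among 1891 pairs of histone promoters the median identity was 43.0%, and 3 pairs reached 90%. These were H4c17 and H4c18 (99.3%), H3c14 and H3c15 (94.7%), and H4c11 and H4c12 (91.3%). H4c11 had a shared end summit and H4c12, alike in the promoter window, had none, while the other 4 genes had no summit of either list at an end. The H4c11 summit lay 749 bp before the start, outside the promoter window, so these identities do not describe the bases under it. The part of read placement in these counts was not tested.

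Histone genes fell into 9 places when a gap over 100 kb between neighbours was taken to end a locus, with 5 clusters and 4 single genes. Chromosome 13 carries 53 of the 67 genes in 4 clusters, and chromosome 3 carries a cluster of 10. A shared summit lay within 20 kb in 6 of the 9 places and at a gene end in 3. The loci with 20 kb on either side span 781161 bp. Parts of this span, mainly in the widest gap of the largest cluster, lie over 20 kb from any histone gene, and summits there were not counted. The counted shared summits came to 1.79 per 100 kb of the span, against 0.311 over chromosomes 1 to 19. For replicate 1 the values were 1.92 against 0.357 per 100 kb, and for replicate 2 they were 5.25 against 3.21. These densities are a description of 14, 15 and 41 summits. They count windows around genes, while the values for chromosomes 1 to 19 include stretches far from any gene. No density around other genes was computed.

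The largest cluster, from H4c8 to H1f1 at chr13:23531044-23764412, holds 29 genes and had 5 shared summits within 20 kb. The one with the highest replicate 1 score, at chr13:23630909, lay 8351 bp from H1f4, in the widest gap of the cluster, with scores of 11.92 (percentile 73.6) and 18.97 (percentile 94.6). In replicate 2 the summit at chr13:23521858, 12 bp from the tRNA gene n-TSgct4, scored higher, at 19.84 (percentile 95.1). Inside this cluster were 2 runs of 9 neighbouring genes with no shared summit within 20 kb. From H4c6 to H4c4 the nearest shared summit was 24983 to 47457 bp away, while replicate 2 summits lay at 0 to 6417 bp. From H1f2 to H1f1 the distances were 46671 to 71532 bp for shared summits and 8506 to 22044 bp for replicate 2. The unpaired replicate 1 summit at H3c1 lies in this second run.

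The cluster from H2bc13 to H2ac24, at chr13:21715711-21833475, holds 17 genes and had 3 shared summits, those of H4c11 and H1f5 and one 5490 bp below H2bc13. Replicate 2 had 8 summits there. The 5 genes from H2ac12 to H2bc11, at chr13:22035122-22043658, had 3 shared summits within 20 kb and none at an end. The highest scores around any cluster were at this one, 24.4 and 30.7 at chr13:22016117, which lies 19005 bp below H2ac12 and so only just inside the window. The testis genes H2bc1 and H2ac1 form the fourth cluster of chromosome 13 and had no replicate 1 summit within 20 kb and 1 replicate 2 summit, 14736 bp from H2ac1.

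On chromosome 3, the 10 genes from H2ac21 to H2bc18 at chr3:96219885-96270192 had no summit of either list at an end. A single shared summit, with scores of 6.16 and 8.31, lay between genes, 3341 bp from H3c15. Among the single genes, H1f0, the linker histone gene of differentiated cells, had a shared summit 10247 bp away inside Gcat, a glycine metabolism gene, with scores of 5.10 and 7.40. H1f10 and H1f7 had no shared summit within 20 kb.

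Most replicate 1 summits around histone genes were found again in replicate 2, as in the whole list. Of the 15 distinct replicate 1 summits within 20 kb, 14 were shared and the summit at H3c1 was not. Over chromosomes 1 to 19 the shared part was 87.0%. Of the 41 replicate 2 summits, 27 had no partner, with scores from 4.12 to 15.5 and a median of 8.31, close to the median of the whole replicate 2 list. Chromosomes 1 to 19 held 7641 shared summits beside 78980 of replicate 2, so most replicate 2 summits had no partner there either.

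**Figure D4:**
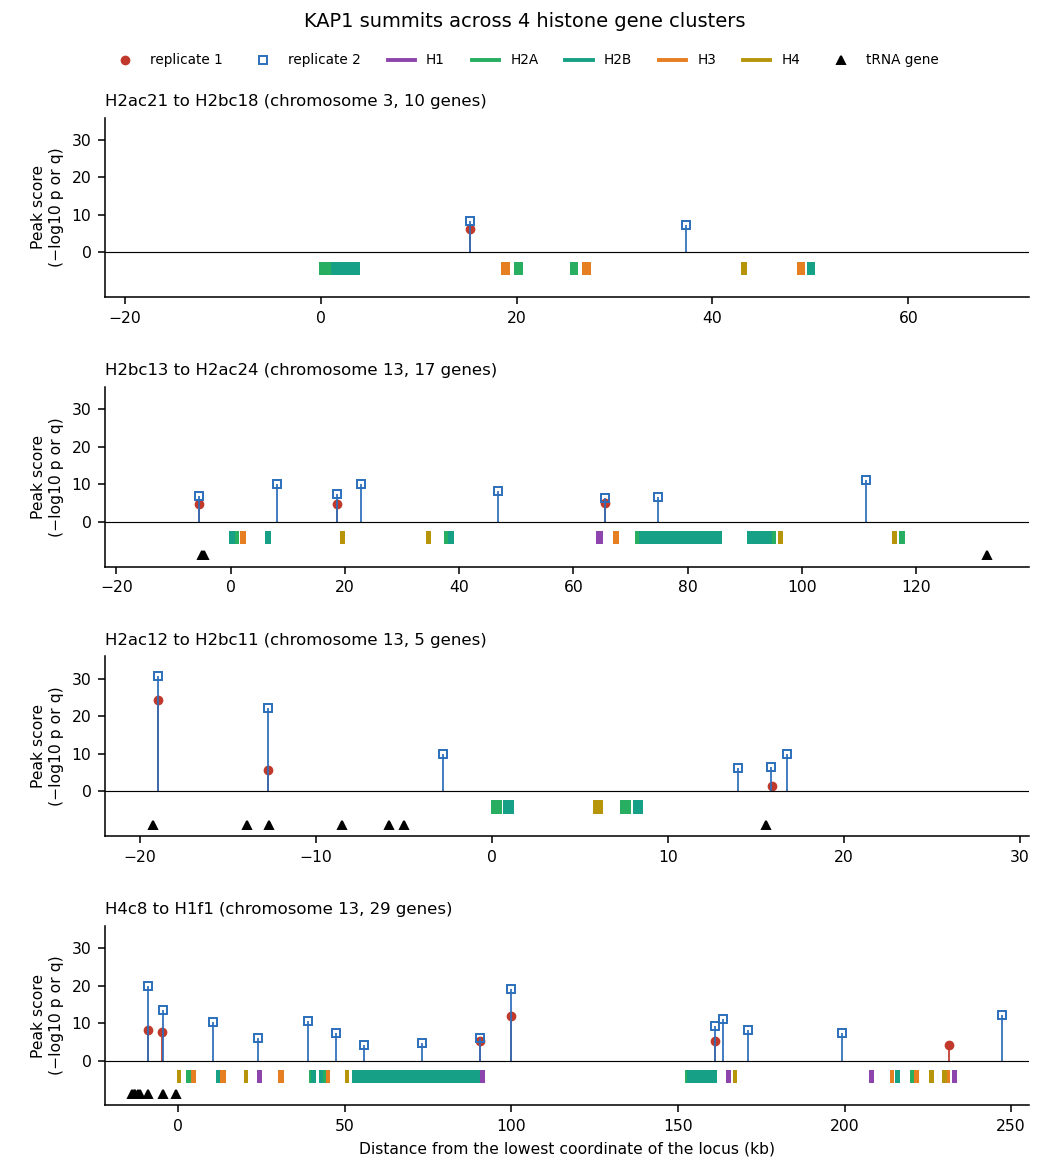
Peak scores of replicate 1 (red) and replicate 2 (open blue) summits within 20 kb of 4 histone clusters, against distance in kb from the lowest coordinate of the cluster; coloured blocks are the annotated spans of histone genes by family, slightly widened, and triangles are tRNA genes. In the cluster H2ac12 to H2bc11 the tall summits stand over tRNA genes outside the histone genes. In H4c8 to H1f1 a summit pair of 11.92 and 18.97 stands in the widest gap. The middle of that gap lies over 20 kb from any histone gene, and summits there are not drawn.

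Many of the shared summits around the chromosome 13 clusters stood at tRNA genes, which RNA polymerase III transcribes. Of the 14 shared summits, 6 lay within 1 kb of a tRNA gene, 5 at histone gene ends and 3 at neither, and none was at both. The 6 were at n-TGgcc7, n-TVaac3, n-TScga1, n-TSgct5, n-TSgct4 and n-TRtcg1, at distances of 8 to 359 bp in replicate 1. Their scores in replicate 2 had a median of 16.7, against 7.40 for the 5 at histone gene ends, and in replicate 1 the medians were 6.62 and 5.10. None of the 27 unpaired replicate 2 summits lay within 1 kb of a tRNA gene. The closest were just beyond this limit, 1125 and 1549 bp from n-TSgct5, and no other limit was tried.

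The summits at tRNA genes bear on the 20 kb counts above. For 10 of the 37 histone genes, the only shared summits within 20 kb were at tRNA genes. Without the 6 summits, 8 remained around the histone loci, or 1.02 per 100 kb. Summits at tRNA genes were not taken out of the 0.311 per 100 kb for chromosomes 1 to 19. Within 20 kb of the loci there are 18 tRNA genes, and 7 of them had a shared summit within 1 kb. They rest on the same 6 summits, because n-TGgcc7 and n-TMcat7 share 1. Over chromosomes 1 to 19, 75 of 391 tRNA genes had one (19.2%). The 3 gaps between the chromosome 13 clusters, counted more than 20 kb from either side, held 6 shared summits, all within 1 kb of a tRNA gene. The gap of 1487385 bp between H2bc11 and H4c8 held 5 of them beside 37 tRNA genes, or 0.345 per 100 kb, close to the 0.311 of chromosomes 1 to 19. The gap between H2ac24 and H2ac12 held 1 beside 24 tRNA genes, and the gap between H1f1 and H2bc1, with no tRNA gene, held none.

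Genes that act on histone genes or histone proteins were described from 3 lists. Of 14 genes for the transcription and 3′ processing of histone messages, 2 had a shared summit at an end. One was Hinfp, whose product binds H4 promoters, with scores of 17.9 and 28.0 on the same base at chr9:44306212, 496 bp outside the gene. The other was Zfp473, a zinc finger protein of histone message processing, with low scores of 2.31 and 4.93. Npat, Casp8ap2 and Slbp had none, and their nearest shared summits were 34932, 28718 and 15749 bp away. Casp8ap2 encodes FLASH, a partner of NPAT at histone clusters, and had 9 replicate 2 summits within 20 kb.

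Of 20 histone chaperone and deposition genes, 4 had a shared end summit. Among them, Asf1a, a chaperone of H3 and H4, had scores of 6.16 and 6.87 at 124 bp outside its lower end. Ssrp1, a subunit of the FACT complex, had 7.25 and 8.71, and Cabin1, of the HIRA complex, had 6.16 and 7.33. Hjurp, the chaperone of the centromeric histone, had an end summit in replicate 2 only, with a score of 25.2.

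Of 9 replication-independent histone variant genes outside the 67, none had a shared end summit. H2az1, which encodes H2A.Z, had a replicate 1 summit of 4.17 at 196 bp outside its lower end with no replicate 2 partner, and a shared summit inside the gene beyond 1 kb of its ends. H2ax, the gene of the DNA damage variant, and the H3.3 genes H3f3a and H3f3b had no shared summit within 20 kb, with the nearest at 22382, 26380 and 45756 bp. The 3 lists together had 6 of 43 genes with a shared end summit, beside 6 of 67 histone genes and the 8.94% of all coding genes, and 1 of the 43, Rbbp7, lies on X.

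The counts at both distances turn on weak summits. With only scores at or above the median of each list, or with replicate 2 reduced to its 8862 highest scores, H1f8 was the only histone gene with a shared end summit, and 10 or 9 genes had one within 20 kb. At ends this was 1.49% of histone genes under either filter, against 5.21% and 4.02% of coding genes. Within 20 kb it was 14.9% and 13.4%, against 23.0% and 18.7%, so the histone share was below that of coding genes under both filters. With an end window of 500 bp, H1f4 and H2bc4 were the 2 genes left (2.99%, background 6.18%).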

How the data were processed

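KAP1 ChIP-seq of 2 samples gave 1 deposited summit list each. The submitters' processing notes name Bowtie2 2.2.9, Picard 2.1.1, MACS2 2.2.1 and build mm10, without settings. The deposited scores are on a −log10 scale, of p-values or else q-values, whichever the authors chose. Control, threshold and filters: not given in the sources used here. Per the labels' protocols, fragments of 150 to 400 bp were selected. Read depth is not recorded, so its precision is unknown.

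From the lists, summits were paired across replicates (200 bp) and located 1-based against RefSeq genes of GRCm38.p6, which shares mm10 coordinates on the assembled chromosomes (Python 3.11.15, pandas 2.3.3). A gene end is its lowest or highest coordinate. Promoter identity used global alignment (Biopython 1.88). The counting code was tested on simulated summits. No test across samples was possible, so counts are given beside those over all coding genes. The genes named are all those with an end summit, the outermost genes and the strongest shared summit of each cluster, pathway genes with a shared end summit (1 is counted but not reported here by name), and 8 chosen pathway genes in every case; Gcat, Hjurp and the other genes beyond this were named after their values were seen. H3f5 was not matched in the table. Members and gene lists were chosen with earlier results of these data known. Alternatives changed the pairing distance, score filter, list length, windows, merging, cluster gap and replicate used.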

Additional observations from a re-analysis of the deposited data

How the results depend on the processing

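The number of histone genes with a shared end summit (6), with one within 20 kb (37), the distinct summits at ends (5) and within 20 kb (14), the clusters with one within 20 kb (6) and the pathway genes with a shared end summit (6) were recomputed under each alternative. With scores at or above the list medians they were 1, 10, 1, 5, 3 and 3. With replicate 2 limited to its 8862 highest scores they were 1, 9, 1, 5, 3 and 2. Ends of 500 bp left 2 histone genes on 2 summits, ends of 2500 bp gave 14 pathway genes, and a near window of 10 kb gave 23 histone genes. With 1 replicate's own list in place of shared summits, the values were 7 to 10 genes at ends, 45 to 64 within 20 kb, 6 to 9 and 15 to 41 distinct summits, 6 to 9 clusters and 8 to 11 pathway genes, the higher from replicate 2 in each case. In all, 35 of the values of these counts under the alternatives, some of them given above, stayed within 1.5 times and 21 did not. The histone share within 20 kb, above that of coding genes with all scores, was below it under both limits on scores. The values for pathway genes were added after the data were seen.

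No paired analysis was possible because the inputs have no summit list here and no test between samples was made. The depth behind the lists is unknown, so the lack of a summit is no measure of absent binding.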
